A study of Mus musculus with 33 samples.

Results

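A group of 37 genes was silent in HC11 cells kept in DMSO and read in every library of HC11 cells kept in trichostatin A (TSA). Members were chosen from the RNA-seq table of those 6 libraries: a member had a normalized count of 2 or less in all 3 DMSO libraries and of 50 or more in all 3 TSA libraries. The table held 26230 genes, of which 10013 met the DMSO limit, so the 37 members made up 0.370% of the DMSO-silent genes. Of the genes Rest, Vgf, Disp2, Atp1b2, Stmn3, Syp, Snap25 and Tubb3, which the choice left out by name, 0 of 8 met both limits. Every TSA and DMSO value of a member is therefore a description of how it was chosen and carries no test; the tests come from the other tables. All 37 members are protein coding in the GENCODE M21 annotation, against 4873 of the 9940 DMSO-silent genes that had an entry there.

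The series measured gene expression by RNA-seq in 33 mouse mammary samples, in 4 separately normalized tables. HC11 is a mouse mammary epithelial cell line; its cells were kept for 24 h in 300 nM TSA or in DMSO (3 libraries each), or carried a guide RNA, sgTrps1 #1 or the scrambled sgScr #1 (2 libraries each), with 1 guide in each arm. Mammary organoids came in 3 genotypes, Cdh1F/F;Trps1+/+, Cdh1F/F;Trps1F/F and Cdh1+/F;Trps1F/F, were transduced with AdCre, an adenovirus that carries Cre, and were harvested at day 14 or day 28 (2 libraries for each genotype and day). Primary mammary tumors had the genotype WAP-cre;Cdh1F/F;Trps1F/F (8 tumors of 6 mice, with tumors 4, 5 and 6 from 1 mouse) or WAP-cre;Cdh1F/F;Trps1+/+ (3 mice). In WAP-cre mice Cre is driven by the promoter of a milk protein gene. Every organoid and tumor group carried at least 1 floxed Cdh1 allele, and every sample of these groups was exposed to Cre. F marks a floxed allele, which Cre deletes.

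TSA inhibits histone deacetylases, the enzymes that remove acetyl groups from histone tails and that corepressor complexes bring to genes held silent. When these enzymes are inhibited, acetyl groups build up on histones across the genome, and genes that a cell type does not normally use can be transcribed. Trps1 is a GATA-type zinc finger protein known as a transcriptional repressor in mammary epithelium, and Cdh1 encodes E-cadherin, the adhesion protein that is lost in lobular breast cancer. In bulk samples such as these, fewer cells of a type and less RNA per cell cannot be told apart.

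Reads assigned to the genes used ran from 17788566 to 25585997 in the TSA and DMSO libraries, from 21346514 to 38708003 in the guide libraries, between 14833245 and 30305818 for organoids and between 18304633 and 24192323 for tumors. Nothing in the labels says that libraries of a cell line or organoid group came from separate cultures, so the p-values reflect how far these libraries differ, and that may be technical variation alone. Trps1 itself had a log2 fold change of -3.05 with TSA (limma, adjusted p = 6.79e-14), of 0.04 with sgTrps1 (adjusted p = 0.676, so its reads do not check the guide), between -4.04 and -2.22 in organoids with floxed Trps1 and of -1.26 in tumors with floxed Trps1 (adjusted p = 0.803). The HC11 epithelial markers, 14 genes that include Krt5, Krt14, Krt8, Epcam and Cdh1, summed to 126612 to 137004 normalized counts with DMSO and to 56542 to 58530 with TSA. Single genes of the list fell by unlike amounts, and some went against the sum, by their medians with DMSO and with TSA. Krt5 was at 40226 and 4361, Krt14 at 53141 and 19294, Krt8 at 6733 and 4945 and Cdh1 at 13782 and 12695. Epcam, at 7526 and 7909, and Krt18, at 110 and 416, went the other way. In the guide libraries 13 of these 14 genes were read with sgScr, and Krt18, named after its values were seen, had no read there, while it was at 104 to 134 in the DMSO libraries of the TSA table.

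The members were found at different levels outside HC11, and 4 of them stayed at 2 or less in every guide, organoid and tumor library: Scgb1c1, Srrm3, Gast and Rtbdn. Their upstream sequences are shown because the TSA libraries were the only ones of the series in which they exceeded 2, with that of Mast1, the nearest member to Rtbdn. Each run is the 250 bases before the RefSeq transcription start in GRCm38.p6, 5′ to 3′ on the gene's strand, with CG dinucleotides in capitals, since CG-rich promoters are the usual sites of unmethylated, acetylated chromatin. Scgb1c1 lies at chr7:140845315-140845564 (plus strand), Srrm3 at chr5:135817856-135818105 (plus), Gast at chr11:100334157-100334406 (plus), Rtbdn at chr8:84946741-84946990 (plus) and Mast1 at chr8:84937354-84937603 (minus).
Scgb1c1: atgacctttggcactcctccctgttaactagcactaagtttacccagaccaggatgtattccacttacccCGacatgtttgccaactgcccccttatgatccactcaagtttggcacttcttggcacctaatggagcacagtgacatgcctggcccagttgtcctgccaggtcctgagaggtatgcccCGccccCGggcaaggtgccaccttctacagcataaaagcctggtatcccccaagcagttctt
Srrm3: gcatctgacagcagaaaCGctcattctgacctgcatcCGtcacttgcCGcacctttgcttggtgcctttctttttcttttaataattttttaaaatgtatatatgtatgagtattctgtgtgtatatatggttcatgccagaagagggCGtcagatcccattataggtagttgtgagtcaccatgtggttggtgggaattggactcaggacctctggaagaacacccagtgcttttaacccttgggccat
Gast: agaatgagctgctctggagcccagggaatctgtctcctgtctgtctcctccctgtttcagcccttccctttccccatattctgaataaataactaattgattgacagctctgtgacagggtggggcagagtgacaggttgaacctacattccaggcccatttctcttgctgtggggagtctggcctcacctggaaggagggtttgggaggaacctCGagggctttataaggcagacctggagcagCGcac
Rtbdn: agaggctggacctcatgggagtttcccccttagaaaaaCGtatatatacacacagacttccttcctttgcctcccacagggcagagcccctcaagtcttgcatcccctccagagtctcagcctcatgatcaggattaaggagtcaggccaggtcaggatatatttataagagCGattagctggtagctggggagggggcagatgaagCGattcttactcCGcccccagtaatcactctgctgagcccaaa
Mast1: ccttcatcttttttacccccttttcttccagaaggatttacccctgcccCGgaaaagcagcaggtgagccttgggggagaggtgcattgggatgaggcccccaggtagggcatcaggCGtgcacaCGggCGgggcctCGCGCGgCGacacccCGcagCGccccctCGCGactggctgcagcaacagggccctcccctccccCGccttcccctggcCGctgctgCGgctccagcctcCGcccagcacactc

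The 4 genes had few CG dinucleotides in these windows, and Mast1 had many. Scgb1c1 held 3 CG in 250 bases, Srrm3 held 4, Gast held 2 and Rtbdn held 4, while Mast1 held 16. Over 32841 RefSeq promoters of the same length the median was 6 CG and the median GC content was 52.4%. As many CG as in Gast or more stood in 81.2% of all promoters, as many as in Scgb1c1 in 71%, as many as in Srrm3 or Rtbdn in 62.2%, and as many as in Mast1 in 25.4%. GC content was 68% in Mast1, 53.6% in Scgb1c1, 53.2% in Gast, 51.6% in Rtbdn and 43.6% in Srrm3.

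Of 5 motifs searched on both strands, TATAAA stood once each in the windows of Gast and Rtbdn, and in 12.4% of all promoters. GGGCGG, the core of the site bound by Sp1-type factors, stood in Scgb1c1 and Rtbdn (1 each) and in Mast1 (2), and in 32.7% of all promoters. The GATA-type motifs AGATAA (9.99% of all promoters) and TGATAA (7.94%) and the E-box CACGTG (6.02%) were not among the letters of these 5 windows. The window of Srrm3 lies inside the gene as GENCODE M21 draws it, which begins at chr5:135806890. A summary of promoters over the whole group is void, because 29 of 37 members (78.4%, under the 80% needed) had an entry in the RefSeq table.

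With DMSO the members had almost no reads. No read was found in any DMSO library for 14 members, 1 read in all for 15, 2 reads for 5 and 3 reads for 3, and no library held more than 1 read of a member. With TSA the mean normalized count ran from 54.4 (Rtbdn) to 207 (Scgb1c1), with a median of 94.8, and the 3 TSA libraries lay close together: the coefficient of variation had a median of 8.11% and was 10% or less for 26 members. Against 3 reads over the DMSO group, the 14 members without a DMSO read were at least 51.6-fold (Rtbdn) to at least 174-fold (Fa2h) higher; for the 23 members with DMSO reads the ratio ran from 63.5 (Psmb9) to 585 (Scgb1c1). Intervals on these ratios cover counting error only and are wide: 21.4 to 310.3 for Psmb9, with 3 reads, and 105 to 23122 for Scgb1c1, with 1 read.

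**Figure D1:**
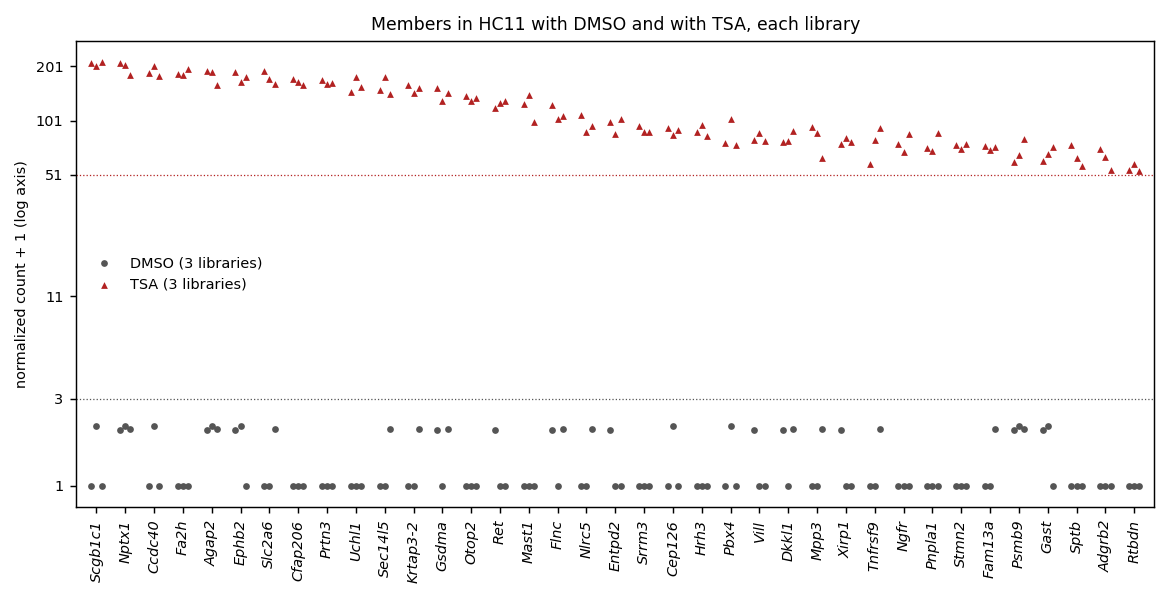
Normalized count plus 1, on a log axis, of each of the 37 members in the 3 DMSO (grey) and the 3 TSA (red) libraries, ordered by the TSA mean, with 1 point for each library and dotted lines at the limits of 2 and 50. All DMSO counts lie at 1.12 or below and all TSA counts at 52.4 or above, which is how the genes were chosen.

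Members just inside the TSA limit were Rtbdn, Adgrb2 and Sptb, whose lowest TSA libraries were at 52.4, 53.4 and 56.3. Just outside it were Ppil6, Igsf11 and Nts, with lowest TSA libraries at 49.8, 49.1 and 49.1. The highest DMSO value of any member was 1.12, which 9 members shared, and the lowest value over the DMSO limit among genes at 50 or more with TSA was 2.05, which 7 genes shared, Ccdc146 and Frmd5 among them. With other TSA limits, 223 of the DMSO-silent genes reached 10 in all 3 TSA libraries, 98 reached 25 and 16 reached 100. In the opposite direction, of 8814 genes silent with TSA, 15 reached 10 in all DMSO libraries, 2 reached 25 and 0 reached 50. Of 13035 genes tested between TSA and DMSO with limma, 85.2% were called, and 43.6% were called higher with TSA; this is the contrast that chose the members.

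By known role, a grouping made after the values were seen, several members are genes of neurons. Nptx1, a pentraxin secreted at synapses, was at 209, 204 and 179 normalized counts in the TSA libraries. Uchl1, a deubiquitinating enzyme abundant in neurons, was at 145, 174 and 154 with no DMSO read. Stmn2, a stathmin of growing axons, was at 73.1, 69.4 and 74.1, also with no DMSO read. These 3 were the members among 73 DMSO-silent genes on a list of neuronal adhesion, cytoskeleton and RNA-binding genes (4.11%), while 0 of 42 DMSO-silent genes of synaptic vesicles and secretory granules were members, nor was any ion channel gene on the list of those. Of 94 silent neurotransmitter and peptide receptor genes the one member was Hrh3, the histamine H3 receptor, at 86.2, 94.3 and 82. Srrm3, which helps splice neuronal microexons, was at 93.8, 86.8 and 87, and Adgrb2, an adhesion receptor of the brain, at 69.8, 62.6 and 53.4. Adgrb2 was the 1 member among 205 silent genes on a list of other orphan and adhesion receptors (0.488%). Mast1, a microtubule-associated kinase, was at 123.3, 139.6 and 98.8. A separate list of 12 neuron and Schwann cell markers did not rise in sum. It was at 477 to 506 with DMSO and at 341 to 369 with TSA. Of the 12, 3 or 4 were at 10 or more in a DMSO library and 5 in a TSA library.

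Receptors for growth and guidance signals of neurons were among the members too. Ret, the tyrosine kinase that answers to GDNF-family ligands, was at 118, 126 and 128.5. Ngfr, a receptor for neurotrophins that also marks basal and mesenchymal cells, was at 74.2, 67.1 and 84 with no DMSO read. Ephb2, a receptor for ephrin-B ligands, was at 185, 164 and 174. Agap2, a GTPase-activating protein enriched in brain, was at 188, 186 and 158, and Mpp3, a membrane scaffold protein, at 92.7, 85.2 and 62.3. The libraries of Mpp3 and Mast1 differed more than those of Ret, with coefficients of variation of 19.8%, 17.0% and 4.49%.

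Skin, hair and surface epithelium gave another set. Fa2h makes the 2-hydroxylated fatty acids of sphingolipids and was at 182, 179.5 and 194 with no DMSO read. Gsdma, a pore-forming gasdermin of skin, was at 152, 129 and 143, and Krtap3-2, a keratin-associated protein of the hair shaft, at 157, 143 and 152. Pnpla1, which makes lipids of the skin barrier, was at 70.9, 67.9 and 85. Krtap3-2 was the 1 member among 146 DMSO-silent genes on a list of keratin, cornified envelope and milk genes. Summed over 211 genes, that list was at 166692 to 188446 with DMSO and lower with TSA, at 81279 to 84099. Of these genes 40 to 42 were at 10 or more in a DMSO library and 43 to 45 in a TSA library. Scgb1c1, a secretoglobin of nasal glands, had the highest level of all, at 208, 201.4 and 211.

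Motile cilia, muscle and blood cells were each represented. Ccdc40 and Cfap206, which build the axoneme of motile cilia, were at 183, 201.4 and 177 and at 171, 163 and 157, and were the 2 members among 133 silent genes on a cilium list; Cep126, a protein of the cilium base, was at 91.6, 83 and 88.9. Flnc, the muscle filamin, was at 122, 102.6 and 106, and Xirp1, an actin-binding protein of striated muscle, at 74.2, 79.97 and 76.1. Sptb, the beta-spectrin of red blood cells and muscle, was at 73.1, 61.9 and 56.3, and Vill, a villin-like actin-binding protein, at 78.6, 86 and 77.1. A list of 12 skeletal muscle markers fell in sum, from 618 to 833 with DMSO to 183 to 204 with TSA. Of the 12, 2 or 3 were at 10 or more in a DMSO library and 5 to 7 in a TSA library. Nlrc5, the transactivator of MHC class I genes, was at 108, 86.8 and 93.9. Psmb9, a subunit of the immunoproteasome, was at 58.9, 64.1 and 79.1. Tnfrsf9, a costimulatory receptor of T cells, was at 57.8, 77.7 and 90.9, and Prtn3, a neutrophil protease, at 168, 159 and 161. The 12 macrophage markers summed to 117 to 139 with DMSO and to 392 to 421 with TSA. The 12 T and B cell markers summed to 2.08 to 5.59 and to 27.2 to 45.5. On the lists, Tnfrsf9 was the 1 member among 248 silent blood and immune genes (0.403%). Xirp1 was the 1 member among 33 silent muscle genes (3.03%). Of all DMSO-silent genes 0.370% were members. That share is over genes of every type, of which 4873 are protein coding, as all 37 members are. The share over protein-coding genes alone was not worked out. The shares of the role lists in this section therefore cannot be called raised.

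The remaining members have scattered roles. Gast, which encodes the stomach hormone gastrin, was at 60.01, 65.6 and 71.2, and Rtbdn, a riboflavin-binding protein of the retina, at 53.5, 57.3 and 52.4. Otop2, a proton channel, was at 136, 129 and 134, and Slc2a6, a transporter of the glucose transporter family, at 188, 169.7 and 160.1. Slc2a6 was the 1 member among 120 silent genes on a list of solute carriers (0.833%). Entpd2, which removes phosphates from extracellular ATP, was at 98.2, 84.5 and 101.8. Sec14l5 (a Sec14-like lipid-binding protein), Fam13a, Pbx4 (a homeobox factor) and Dkkl1 (a secreted protein of sperm) had means of 154, 70.6, 83.7 and 80.4. None of the 105 silent germ cell genes, 143 developmental transcription factors, 44 matrix genes, 120 detoxifying enzymes or 38 histone genes on the lists was a member, and 26 members were on no list. Members are so few among DMSO-silent genes that lists of this size without a member show no lack.

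Per kilobase of exon the order of levels changed, since the members differ in length. Scgb1c1, with 455 bases of exon, was at 455 normalized counts per kb in TSA, followed by Krtap3-2 at 146 and Gast at 143, both also short, and Uchl1 at 96.7. The lowest were Sptb at 5.25, Fam13a at 6.72 and Mpp3 at 8.53 per kb. The members' exonic length had a median of 4409 bases with 11 exon blocks. Protein-coding genes that stayed silent in both conditions had medians of 2360.5 bases and 5 blocks, and protein-coding genes at 50 or more in every DMSO library had 4758 bases and 10 blocks. Length was not corrected for when members were chosen.

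Chromosome 11 carried 8 of the 37 members (21.6%, against 8.07% of all DMSO-silent genes) and chromosome 8 carried 5 (13.5%, against 3.80%). No member lay on chromosomes 1, 13, 14, 15, 18, 19, X or Y. Mast1 and Rtbdn on chromosome 8 are transcribed away from each other with 9632 bases between their GENCODE starts and no annotated gene in between. The start of Ccdc40 lies 73 bases from that of Tbc1d16 on the other strand, which had a mean of 184 with DMSO and of 3416 with TSA.

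The labels do not say whether counting used the strand, so values of members that overlap another gene are uncertain. Annotated genes overlapped 15 members, and for 7 of them the other gene was at 50 or more in DMSO or TSA. Among these, Sptb overlaps Plekhg3 (1443 with DMSO and 906 with TSA), Tnfrsf9 overlaps Camta1 (684 and 699.7), Entpd2 overlaps Npdc1 on its own strand (540.2 and 735) and Mast1 overlaps Dnase2a (43.5 and 373). Psmb9 overlaps Tap1 (23.3 and 102.7), Otop2 overlaps Ush1g (3.46 and 73.3) and Prtn3 overlaps Plppr3 (26.3 and 59.0). For 6 members (Agap2, Flnc, Pbx4, Prtn3, Scgb1c1 and Vill) a gene of 50 or more ended within 10000 bases upstream on the same strand, and reads that ran on from it were not told apart from the member's own.

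RNA of deacetylases and of corepressor subunits changed in both directions in the same libraries. On a list of 34 deacetylases and corepressor subunits, none of which is a member, 32 were tested between TSA and DMSO; 10 were called higher and 20 lower (limma, background 85.2% of all genes), with a median log2 fold change of -0.66 against 0.02 over all genes. Of the deacetylases themselves, Hdac1, Hdac3, Hdac5, Hdac6 and Hdac11 were called higher, and Hdac2, Hdac4, Hdac7, Hdac8 and Hdac10 lower. The median is thus of the whole list and not of the enzymes alone. Hdac11 rose most, by 2.89 (SE 0.10, adjusted p = 9.8e-11), and Mta3, a subunit of the NuRD corepressor, fell most, by 3.0 (SE 0.07, adjusted p = 4.03e-12).

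The guide libraries are a second set of HC11 cells, with no drug in their labels, and few members were read at depth there. Of 34 members in that table (Cfap206, Cep126 and Adgrb2 are not in it), 18 were at 2 or less in all 4 libraries (52.9%), 8 of them without a read, against 79.6% of the 5028 DMSO-silent genes in the table. One member, Nlrc5, was at 50 or more in every library (2.94%, against 0.179%). The tables were normalized separately, so this describes classes within a table. All 37 members are protein coding, against 4873 of the 9940 DMSO-silent genes with a GENCODE entry. The shares thus set unlike gene types side by side, and the part of gene type in them was not tested. Of the 9705 genes at 50 or more in every DMSO library, 36 were at 2 or less in all guide libraries.

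The 4 members with enough reads to be tested all differed between sgTrps1 and sgScr, 3 lower and 1 higher with sgTrps1, in a comparison in which limma called 67.0% of all 12552 genes (34.6% higher and 32.4% lower). Nlrc5 was at 83.2 and 79.9 with sgScr and at 57.5 and 54.3 with sgTrps1, a log2 fold change of -0.54 (SE 0.15, adjusted p = 0.00594). Tnfrsf9 was at 42.6 and 28.5 against 10.02 and 11.4, a fold change of -1.62 (SE 0.27, adjusted p = 0.00013). Both were lower in each sgTrps1 library than in either sgScr library, a separation that was not counted over all genes. Slc2a6 was at 15.7 and 14.7 with sgScr and at 6.33 and 5.69 with sgTrps1 (-1.21, SE 0.33, adjusted p = 0.00523). Gsdma was at 1.97 and 0.919 with sgScr and at 19.5 and 20.2 with sgTrps1 (3.13, SE 0.41, adjusted p = 1.48e-05). Slc2a6 and Gsdma passed the filter on low values through 1 group each, so that they had to differ, and their calls support nothing about the group. Without the second sgTrps1 library the calls of Nlrc5 (adjusted p = 0.0823) and Slc2a6 (0.0539) were lost. The 8 myoepithelial markers summed to 20247 to 23165 with sgScr and to 72545 to 73199 with sgTrps1, and the 14 epithelial markers to 47608 to 51301 and to 100501 to 101212. Krt5, Krt14 and Trp63 are on both lists, so the sums are not separate. By medians with sgScr and sgTrps1, Krt5 was at 7085 and 45176, Krt14 at 9848 and 24522.5 and Cdh1 at 9394 and 11784. Epcam, at 3157 and 1191, and Krt8, at 604 and 423, went the other way. The part of both lists in these differences was not tested.

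In organoids most of the group was read. The 2 libraries of an organoid group are called a and b in the order of the table's columns, since most headers do not tell them apart. Of 33 members in the organoid table (Krtap3-2 is also not in it), 5 were at 2 or less in all 12 libraries (15.2%, against 34% of the 6123 DMSO-silent genes there): Scgb1c1, Otop2, Srrm3, Gast and Rtbdn. Flnc, Nlrc5, Entpd2, Vill, Fam13a, Psmb9 and Sptb were at 50 or more in all 12 (7 members, 21.2%, against 5.37%), and 12 more were so in at least 1 library. The DMSO-silent genes are not all protein coding, as the members are, and the part of this in the shares was not tested. Of the members, 26 passed the filter and could be tested, 15 of them in every library. The rest had to pass in 2 libraries only, so the counts below are of the tested members, not of the whole group. Fa2h, Gsdma and Hrh3 passed only with the libraries of Cdh1+/F;Trps1F/F, and Pnpla1 only with those of Cdh1F/F;Trps1+/+. Fold changes of these 4 members in comparisons with that genotype had to lean to it, so their calls support nothing about the group, and counts are also given for the other 22.

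**Figure D2:**
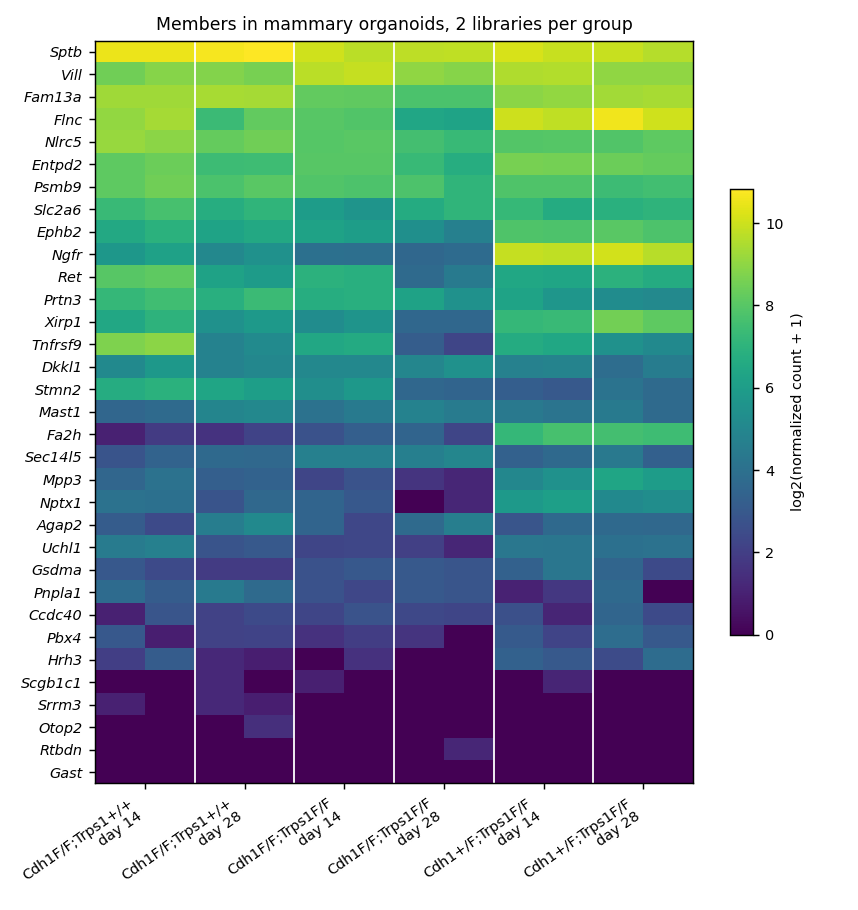
Heat map of log2(normalized count + 1) of the 33 members in the table (rows, by mean level) in the 12 organoid libraries (columns, 2 for each genotype and day), from dark (0) to yellow (high). Ngfr and Fa2h are bright in the 4 Cdh1+/F;Trps1F/F libraries, Stmn2 is brightest in Cdh1F/F;Trps1+/+, and the 5 bottom rows are at 2 normalized counts or less throughout.

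In organoids with both Cdh1 alleles floxed, more members were called lower than higher where Trps1 was floxed too. At day 14, Cdh1F/F;Trps1F/F against Cdh1F/F;Trps1+/+, 12 of 26 tested members were called lower and 3 higher, with 32.4% of all 15860 genes called (17.9% lower and 14.5% higher); the members' median log2 fold change was -0.90, and that of all genes -0.01. At day 28, 15 were lower and 1 higher with 43.2% of all genes called (23.4% lower and 19.9% higher), and the medians were -1.10 and -0.04. Lower at both days were 11: Uchl1, Ret, Ngfr, Stmn2, Mpp3, Flnc, Xirp1, Sptb, Nlrc5, Tnfrsf9 and Fam13a. Sec14l5 was the 1 member higher at both days. How many of all genes were called at both days, or at neither, was not counted. The numbers of members so called therefore have no background share. Without the 4 members that a single genotype let through, 12 were lower and 2 higher at day 14, and 15 and 1 at day 28. The 12 neuron and Schwann cell markers summed to 4709 to 6607 in Cdh1F/F;Trps1F/F and to 3409 to 4385 in Cdh1F/F;Trps1+/+, with 3 to 6 and 3 to 5 of the 12 at 10 or more. Their part in these differences was not tested. Called at neither day were 7: Agap2, Gsdma, Mast1, Hrh3, Dkkl1, Pnpla1 and Psmb9.

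Stmn2 was at 102.6 and 121 in Cdh1F/F;Trps1+/+ organoids at day 14 and at 39.5 and 54.3 in Cdh1F/F;Trps1F/F. At day 28 it was at 80.4 and 66 against 11.4 and 10.1. The libraries did not overlap at either day. With 2 libraries on each side such separation is easily reached. Its share over all genes was not counted, here or for the genes below. The log2 fold change of Stmn2 was -1.25 (SE 0.29, adjusted p = 0.00508) at day 14 and -2.66 (SE 0.29, adjusted p = 1.17e-05) at day 28. The fall was larger at day 28, by -1.41 (SE 0.41, adjusted p = 0.0322 for the difference between days). Ret was at 255 and 285 against 122 and 112 at day 14, and at 73.7 and 59.8 against 12.4 and 20.2 at day 28. Its fold change was -1.20 (adjusted p = 0.00171) and then -2.0 (SE 0.24, adjusted p = 2.27e-05). Without library a of Cdh1F/F;Trps1F/F at day 14 the day 14 call of Stmn2 was lost (adjusted p = 0.0717), while Ret kept its calls at both days without each library.

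Ngfr was at 51.8 and 72.9 against 15 and 14.5 at day 14, and at 31.8 and 44 against 11.4 and 12.6 at day 28. It was lower in every Cdh1F/F;Trps1F/F library, with fold changes of -1.98 (SE 0.23, adjusted p = 3.38e-05) and -1.57 (SE 0.23, adjusted p = 0.000152). Uchl1 was at 21.9 and 24.9 against 3.76 and 3.88 at day 14, a fold change of -2.34 (SE 0.41, adjusted p = 0.000695). At day 28 Uchl1 was at 6.08 and 7.04 against 3.1 and 1.26, a fold change of -1.31 (adjusted p = 0.0196), which was lost without library b of Cdh1F/F;Trps1F/F (adjusted p = 0.15). Mpp3 fell by 1.32 at day 14 (adjusted p = 0.0188, and 0.153 without library a of Cdh1F/F;Trps1F/F) and by 1.96 at day 28 (adjusted p = 0.0013).

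Nptx1 and Ephb2 were called at day 28 alone. Nptx1 was at 6.08 and 11.4 in Cdh1F/F;Trps1+/+ and at 0 and 1.26 in Cdh1F/F;Trps1F/F at day 28, a fold change of -2.64 (SE 0.45, adjusted p = 0.000469). Ephb2 was at 76.4 and 92.4 against 41.3 and 25.2 at that day, a fold change of -1.35 (SE 0.24, adjusted p = 0.000566). At day 14 their fold changes were -0.81 and -0.57 with adjusted p = 0.195 and 0.0871. The difference between days did not reach an adjusted p of 0.05 for either gene, so the days are not shown to differ.

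Of the immune members, Tnfrsf9 and Nlrc5 fell at both days. Tnfrsf9 was at 427 and 498 against 88.4 and 96 at day 14, and at 27 and 35.2 against 8.26 and 3.78 at day 28. Its fold changes were -2.31 (SE 0.30, adjusted p = 7.14e-05) and -2.26 (SE 0.30, adjusted p = 5.56e-05), with no overlap between the groups at either day. Nlrc5 was at 572 and 495 against 247 and 263 at day 14, and at 306 and 355 against 192 and 155 at day 28. The fold changes of Nlrc5 were -1.06 (SE 0.15, adjusted p = 0.000128) and -0.93 (SE 0.15, adjusted p = 0.000246). Prtn3 fell by 1.24 at day 28 (SE 0.29, adjusted p = 0.00383) and had -0.57 at day 14 (adjusted p = 0.151), and Psmb9 had -0.47 at each day (adjusted p = 0.107 and 0.0868). The 11 macrophage markers of this table, which such immune genes can come with, summed to 912 to 3184 in Cdh1F/F;Trps1F/F and to 3302 to 9019 in Cdh1F/F;Trps1+/+, with 10 or 11 of the 11 at 10 or more in each library. Their part was not tested.

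Flnc, Xirp1 and Sptb, genes of muscle and the cytoskeleton, fell at both days. Flnc was at 531 and 656 against 255 and 233 at day 14 (-1.27, SE 0.24, adjusted p = 0.0012), and at 166 and 301 against 83.6 and 75.7 at day 28 (-1.48, adjusted p = 0.000284). Xirp1 was at 89.7 and 128.1 against 37.6 and 47.5 at day 14, and at 43.9 and 57.2 against 11.4 and 11.4 at day 28, with fold changes of -1.32 (adjusted p = 0.00106) and -2.05 (SE 0.24, adjusted p = 2.34e-05). Sptb was at 1469 and 1457 against 1067 and 829.1 at day 14 (-0.64, adjusted p = 0.00221) and at 1648 and 1812 against 870.3 and 885 at day 28 (-0.98, adjusted p = 6.17e-05). Vill went the other way at day 14, from 356 and 458 to 832 and 923 (1.12, SE 0.13, adjusted p = 2.57e-05). At day 28 Vill was at 454 and 389.9 against 521 and 467 (0.23, adjusted p = 0.163), and the effect at day 28 was smaller than at day 14 by 0.89 (SE 0.18, adjusted p = 0.00636). The 12 skeletal muscle markers summed to 921 to 3015 in Cdh1F/F;Trps1F/F and to 5191 to 11324 in Cdh1F/F;Trps1+/+, with 10 to 12 and with all 12 of the 12 at 10 or more. The 13 fibroblast markers summed to 45764 to 54190 and to 118600 to 147585, with 12 or 13 and with 13 of the 13 at 10 or more. Their part in the falls was not tested.

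Fam13a had the smallest error of the falls: 623 and 617 against 298 and 286 at day 14, and 684 and 663 against 218 and 213 at day 28. Its fold changes were -1.08 (SE 0.10, adjusted p = 4.4e-06) and -1.64 (SE 0.10, adjusted p = 1.07e-07), and the fall was larger at day 28 by -0.56 (SE 0.14, adjusted p = 0.0175). Slc2a6 was lower at day 14, at 159 and 204 against 62.1 and 47.5 (-1.71, SE 0.24, adjusted p = 0.000161), and not at day 28, at 107 and 136 against 99.1 and 136 (-0.06, adjusted p = 0.87); the difference between days was 1.65 (SE 0.35, adjusted p = 0.00753). Sec14l5 rose from 5.98 and 9.78 to 25.4 and 25.2 at day 14 (1.60, adjusted p = 0.00864) and from 12.2 and 11.4 to 24.8 and 30.3 at day 28 (1.15, adjusted p = 0.0358). The calls of Sec14l5 were lost without library a of Cdh1F/F;Trps1+/+ at day 14 (adjusted p = 0.0926) and without library b of Cdh1F/F;Trps1F/F at day 28 (0.152). Fa2h rose by 1.57 at day 14 (adjusted p = 0.0209, and 0.184 without library a of Cdh1F/F;Trps1+/+), and Entpd2 fell by 0.44 at day 28 (adjusted p = 0.0486, and 0.435 without library b of Cdh1F/F;Trps1F/F).

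**Figure D3:**
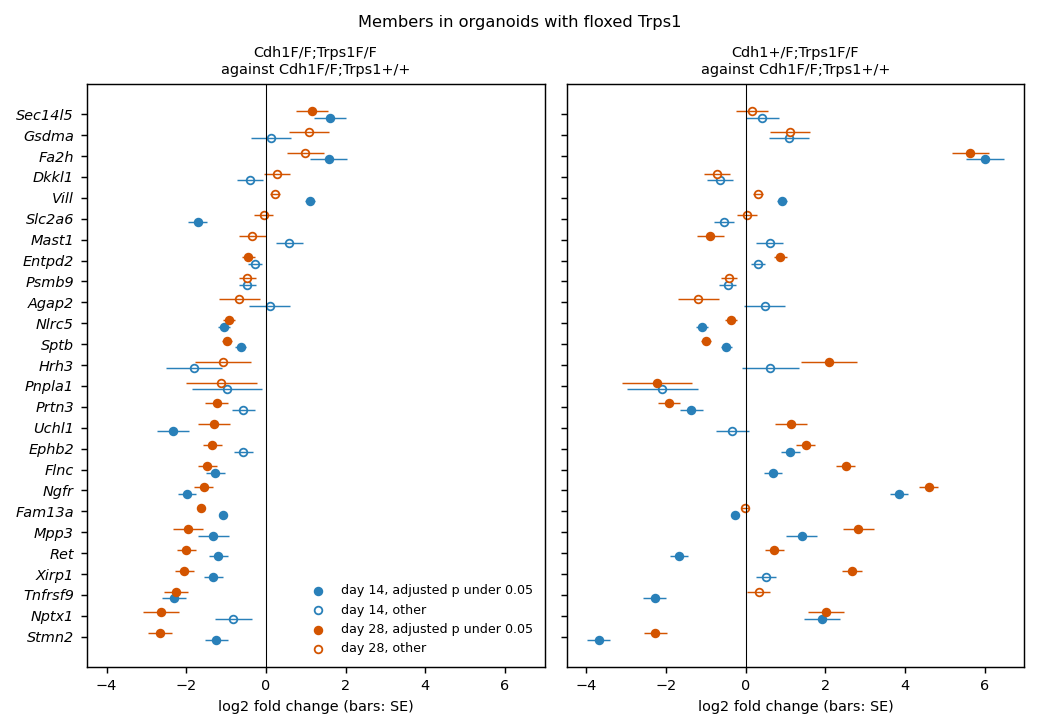
Log2 fold change with its standard error of the 26 tested members, for Cdh1F/F;Trps1F/F (left) and Cdh1+/F;Trps1F/F (right) organoids, each against the same Cdh1F/F;Trps1+/+ organoids, at day 14 (blue) and day 28 (orange), with filled points at an adjusted p under 0.05. On the left 12 members at day 14 and 15 at day 28 are filled below 0, and on the right Fa2h and Ngfr stand farthest above 0 and Stmn2 farthest below.

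Organoids with 1 floxed Cdh1 allele and both Trps1 alleles floxed differed from the same Cdh1F/F;Trps1+/+ organoids in both directions. Since this comparison shares its control libraries with the one above and differs from them in both genes, the 2 sets of fold changes are given side by side and not set against each other. At day 14, Cdh1+/F;Trps1F/F against Cdh1F/F;Trps1+/+, 7 of 26 members were called higher and 7 lower with 36.3% of all genes called, 18.9% higher and 17.4% lower (median log2 fold change 0.36, against 0.02 over all genes). At day 28, 11 were higher and 6 lower with 53.3% of all genes called, 28.6% higher and 24.7% lower (medians 0.31 and 0.03). Over the 22 members that no single genotype let through, 6 were higher and 7 lower at day 14, and 9 and 5 at day 28. With quantile normalization the split over all 26 was 6 higher and 10 lower at day 14, and 8 and 9 at day 28, where the share of higher calls among all called genes moved from 53.7% to 42.0%.

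Ngfr had the largest rise at both days among those 22 members, and Fa2h, which passed the filter through Cdh1+/F;Trps1F/F, was read mainly there. Ngfr went from 51.8 and 72.9 to 923 and 876 at day 14, and from 31.8 and 44 to 1069 and 799 at day 28. Fa2h went from 0.996 and 2.67 to 147 and 202 at day 14, and from 2.03 and 3.52 to 191 and 175 at day 28. No library of one genotype came near those of the other. The log2 fold changes were 3.85 (SE 0.23, adjusted p = 7.91e-08) and 4.59 (adjusted p = 7.01e-09) for Ngfr, and 6.0 (SE 0.47, adjusted p = 7.03e-07) and 5.64 (adjusted p = 5.59e-07) for Fa2h. Nptx1 rose from 15.9 and 15.1 to 54.9 and 68.6 at day 14 (1.92, SE 0.45, adjusted p = 0.0052, and 0.0524 without library b of Cdh1+/F;Trps1F/F), and from 6.08 and 11.4 to 34.5 and 39.1 at day 28 (2.01, adjusted p = 0.00237). Ephb2 rose by 1.12 (SE 0.24, adjusted p = 0.0026) and 1.51 (adjusted p = 0.000162), from 90.7 and 118 to 227 and 225 at day 14 and from 76.4 and 92.4 to 264 and 219.8 at day 28.

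The rises of Flnc and Xirp1 were larger at day 28 than at day 14. Flnc was at 1026 and 879 at day 14 and at 1541 and 1066 at day 28, a fold change of 0.68 (adjusted p = 0.0391, and 0.242 without library a of Cdh1F/F;Trps1+/+) and of 2.52 (SE 0.24, adjusted p = 1.82e-06). Xirp1 was at 146 and 160.1 at day 14 (0.51, adjusted p = 0.121) and at 369 and 284 at day 28 (2.67, SE 0.24, adjusted p = 1.26e-06). The rise was larger at day 28 by 1.83 (SE 0.34, adjusted p = 0.00137) for Flnc and by 2.16 (SE 0.34, adjusted p = 0.000508) for Xirp1. Mpp3 was at 31.1 and 43.3 and then at 81.1 and 63.2, with fold changes of 1.40 (adjusted p = 0.0125, and 0.12 without library a of Cdh1F/F;Trps1+/+) and 2.83 (SE 0.39, adjusted p = 4.89e-05), and its difference between days was not called (adjusted p = 0.0613). The 12 skeletal muscle markers summed to 15081 to 60398 over the 4 Cdh1+/F;Trps1F/F libraries, and the 13 fibroblast markers to 470667 to 809342, with every one of them at 10 or more in each library. The 14 epithelial markers summed to 71622 to 131099 against 144536 to 157770 in Cdh1F/F;Trps1+/+. By medians at day 14, Krt5 (7577 against 35679) and Krt14 were lower in Cdh1+/F;Trps1F/F. Epcam (15289 against 9978), Krt8, Krt18 and Cdh1 were higher there at day 14. At day 28 Krt5, Krt14, Krt8, Krt18 and Cdh1 were lower, and Epcam was at 10607 against 10424. The part of these lists in the rises was not tested.

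Stmn2, Prtn3 and Sptb were lower in Cdh1+/F;Trps1F/F organoids at both days. Stmn2 was at 8.29 and 7.22 at day 14 and at 16.5 and 12.5 at day 28, with fold changes of -3.68 (SE 0.29, adjusted p = 7.41e-07) and -2.27 (SE 0.29, adjusted p = 2.73e-05). Prtn3 was at 77.7 and 50.6 and at 37.5 and 32.9, against 146 and 182 and against 113.5 and 164. Every Cdh1+/F;Trps1F/F library was below every Cdh1F/F;Trps1+/+ library of its day for both genes, and the fold changes of Prtn3 were -1.37 (SE 0.29, adjusted p = 0.00232) and -1.93 (adjusted p = 9.92e-05). Sptb fell by 0.49 at day 14 (adjusted p = 0.0108, and 0.116 without library b of Cdh1+/F;Trps1F/F) and by 1.00 at day 28 (SE 0.13, adjusted p = 3.1e-05). Tnfrsf9 was lower at day 14, at 101.6 and 86.7 (-2.29, adjusted p = 6.14e-05), and at 43.6 and 34.7 at day 28 (0.32, adjusted p = 0.382); the difference between days was 2.61 (SE 0.42, adjusted p = 0.000561). Ret was at 87.1 and 80.7 at day 14 (-1.67, adjusted p = 0.000118) and at 122 and 98.8 at day 28 (0.71, adjusted p = 0.0216), a difference between days of 2.39 (SE 0.33, adjusted p = 0.000207), and its day 28 call was lost without library a of Cdh1+/F;Trps1F/F (adjusted p = 0.139).

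Other calls in this comparison were smaller or rested on few reads. Nlrc5 fell by 1.10 at day 14 (SE 0.15, adjusted p = 7.67e-05) and by 0.37 at day 28 (adjusted p = 0.0486, and 0.285 without library a of Cdh1+/F;Trps1F/F). Vill rose by 0.90 at day 14 (SE 0.13, adjusted p = 0.000115) and Entpd2 by 0.87 at day 28 (SE 0.17, adjusted p = 0.000752). At day 28, calls lost when 1 library was left out were those of Uchl1 (1.13, adjusted p = 0.032, and 0.141 without library a of Cdh1F/F;Trps1+/+), Hrh3 (2.08, 0.0245, and 0.215 without library b of Cdh1+/F;Trps1F/F, the genotype that let it through the filter), Mast1 (-0.88, 0.0417, and 0.293) and Pnpla1 (-2.22, 0.0494, and 0.653, both without the same library as Hrh3; Pnpla1 was let through by Cdh1F/F;Trps1+/+). Fam13a fell by 0.27 at day 14 (adjusted p = 0.046, and 0.258 without library a of Cdh1+/F;Trps1F/F). Without library b of Cdh1F/F;Trps1+/+ at day 28 the number of calls at that day went from 17 to 11.

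A comparison added after values were seen set the organoids with floxed Trps1 side by side, Cdh1F/F against Cdh1+/F. At day 14, 12 of 26 members were lower and 3 higher in Cdh1F/F;Trps1F/F with 40.6% of all genes called, 21.6% lower and 19.0% higher (median log2 fold change -0.48, against 0.01). At day 28, 14 were lower and 1 higher with 56.7% called, 29.0% lower and 27.7% higher (medians -0.93 and 0.02). Over the 22 members, 10 were lower and 3 higher at day 14, and 12 and 1 at day 28. Quantile normalization moved the median of all genes at day 28 to 0.14, the share of higher calls among all called genes from 48.9% to 59.9%, and the members' split to 13 lower and 5 higher; at day 14 that share moved from 46.8% to 57.0% and the split to 12 and 5. Ngfr had log2 fold changes of -5.83 (SE 0.23, adjusted p = 1.52e-09) at day 14 and -6.16 (adjusted p = 3.21e-10) at day 28, and Fa2h of -4.43 (SE 0.47, adjusted p = 6.87e-06) and -4.64 (adjusted p = 2.12e-06), the latter again a gene that Cdh1+/F;Trps1F/F let through. The 13 fibroblast markers summed to 45764 to 54190 in Cdh1F/F;Trps1F/F against 470667 to 809342 in Cdh1+/F;Trps1F/F, the 12 skeletal muscle markers to 921 to 3015 against 15081 to 60398, and the 14 epithelial markers to 205367 to 234437 against 71622 to 131099. Their part in these differences was not tested.

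Xirp1 was lower in Cdh1F/F;Trps1F/F than in Cdh1+/F;Trps1F/F by 1.83 at day 14 (SE 0.24, adjusted p = 5.1e-05) and by 4.72 at day 28 (adjusted p = 3.87e-09), and Flnc by 1.96 and 3.99 (SE 0.24, adjusted p = 2.39e-05 and 1.41e-08). Nptx1, Mpp3, Ephb2, Uchl1 and Fam13a were also lower at both days, with day 28 fold changes of -4.65, -4.79, -2.86, -2.44 and -1.62. The largest adjusted p among these 5 at either day was that of Uchl1 at day 14 (0.00147). Stmn2 was higher in Cdh1F/F;Trps1F/F at day 14 (2.44, SE 0.29, adjusted p = 1.97e-05) and had -0.39 at day 28 (adjusted p = 0.27). Calls lost when 1 library was left out were those of Prtn3 (0.80, adjusted p = 0.0407, and 0.301 without library b of Cdh1+/F;Trps1F/F), Sec14l5 (1.18, 0.0333, and 0.158 without library a of Cdh1+/F;Trps1F/F), Entpd2 (-0.58, 0.0132, and 0.0715 without the same library) and Hrh3 (-2.43, 0.0145, and 0.164 without library a of Cdh1F/F;Trps1F/F, with the limit of its filter as above) at day 14, and of Dkkl1 (1.00, 0.019, and 0.166 without library a of Cdh1+/F;Trps1F/F) and Nlrc5 (-0.56, 0.00565, and 0.062 without library b of Cdh1+/F;Trps1F/F) at day 28.

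Between day 14 and day 28 more members were called lower than higher in both Cdh1F/F genotypes. In Cdh1F/F;Trps1+/+ organoids 8 of 26 were lower and 2 higher at day 28 with 25.9% of all genes called, 14.7% lower and 11.1% higher (medians -0.55 and 0.01), and in Cdh1F/F;Trps1F/F organoids 13 were lower and 1 higher with 35.4% called, 20.6% lower and 14.8% higher (medians -0.61 and -0.03). In Cdh1+/F;Trps1F/F organoids 3 were lower and 3 higher with 40.8% called, 20.3% lower and 20.5% higher (medians 0.02 and 0.04). The 11 macrophage markers summed to 8622 and 9019 at day 14 and to 3302 and 3729 at day 28 in Cdh1F/F;Trps1+/+, and to 2639 and 3184 and then 912 and 1443 in Cdh1F/F;Trps1F/F. In Cdh1+/F;Trps1F/F they summed to 21674 and 22316 and then to 4884 and 6146. The 12 skeletal muscle markers went from 8630.5 and 11324 to 5191 and 7690 in Cdh1F/F;Trps1+/+, from 2833 and 3015 to 921 and 1357 in Cdh1F/F;Trps1F/F, and from 15081 and 16849 to 46936.5 and 60398 in Cdh1+/F;Trps1F/F. The part of both lists was not tested. Tnfrsf9 fell by 3.86 in Cdh1F/F;Trps1+/+ (SE 0.30, adjusted p = 1.91e-06), by 3.81 in Cdh1F/F;Trps1F/F (adjusted p = 4.65e-06) and by 1.25 in Cdh1+/F;Trps1F/F (adjusted p = 0.00554, and 0.0525 without its day 14 library a). Ret fell by 2.0 in Cdh1F/F;Trps1+/+ (SE 0.24, adjusted p = 6.05e-05) and by 2.81 in Cdh1F/F;Trps1F/F (adjusted p = 6.59e-06), and had 0.38 in Cdh1+/F;Trps1F/F (adjusted p = 0.212).

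Flnc fell by 1.40 and 1.60 over time in the Cdh1F/F genotypes without and with floxed Trps1 (SE 0.24, adjusted p = 0.000977 and 0.00039), and Entpd2 by 0.81 and 0.98 (SE 0.17, adjusted p = 0.00336 and 0.000919). Called in Cdh1F/F;Trps1F/F and not in Cdh1F/F;Trps1+/+ were the falls of Nptx1 (-2.64, adjusted p = 0.000979), Ephb2 (-1.08, adjusted p = 0.00438), Stmn2 (-2.02, adjusted p = 0.000312), Vill (-0.83, adjusted p = 0.000469) and Fam13a (-0.44, adjusted p = 0.00489); the genotypes were shown to differ over time for the last 3 alone, by the differences between days given above. Vill also fell in Cdh1+/F;Trps1F/F, by 0.54 (adjusted p = 0.00517). Xirp1 fell by 1.81 in Cdh1F/F;Trps1F/F (SE 0.24, adjusted p = 0.000189) and by 1.08 in Cdh1F/F;Trps1+/+ (adjusted p = 0.00595, and 0.0691 without its day 14 library b), and rose by 1.08 in Cdh1+/F;Trps1F/F (adjusted p = 0.00408). Rises in Cdh1F/F;Trps1+/+ were those of Agap2 (2.06, adjusted p = 0.0111, and 0.0895 without day 14 library b) and Mast1 (1.32, 0.0119, and 0.0801 without day 14 library a). In Cdh1F/F;Trps1F/F the rise was that of Slc2a6 (1.08, 0.00495, and 0.0539 without day 28 library b). Other falls over time that were lost without 1 library were those of Uchl1 (-1.69, adjusted p = 0.00872, and 0.062 without day 14 library b), Ngfr (-0.70, 0.0424, and 0.275 without the same library) and Nlrc5 (-0.69, 0.00427, and 0.0527 without day 14 library a) in Cdh1F/F;Trps1+/+, of Mpp3 (-1.11, 0.0397, and 0.227 without day 14 library b), Prtn3 (-0.93, 0.0244, and 0.221 without day 28 library b) and Nlrc5 (-0.56, 0.0111, and 0.104 without day 28 library b) in Cdh1F/F;Trps1F/F, and of Prtn3 (-0.82, 0.0371, and 0.287 without day 14 library a) in Cdh1+/F;Trps1F/F. In that last genotype the rises of Stmn2 (0.81, 0.0395, and 0.201 without day 28 library a) and Fam13a (0.37, 0.0102, and 0.0956 without day 14 library a) were lost too. Without day 14 library b, 6 of the 10 calls in Cdh1F/F;Trps1+/+ were made, and without day 14 library a, 2 of the 6 in Cdh1+/F;Trps1F/F.

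In tumors the members ranged widely. All 37 were in the table; 4 were at 2 or less in all 11 tumors (10.8%, against 49.3% of the 10013 DMSO-silent genes), and 26 were at 50 or more in at least 1 tumor (70.3%, against 17.6%). Agap2, Ephb2, Flnc, Nlrc5, Fam13a and Psmb9 were at 50 or more in all 11 (6 members, 16.2%, against 3.76%). Here too the DMSO-silent genes include many that are not protein coding, while every member is. The part of gene type in these shares was not tested. Without tumor 4 of the Trps1F/F group, Krtap3-2, Otop2 and Pnpla1 were at 2 or less as well, which made 7.

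**Figure D4:**
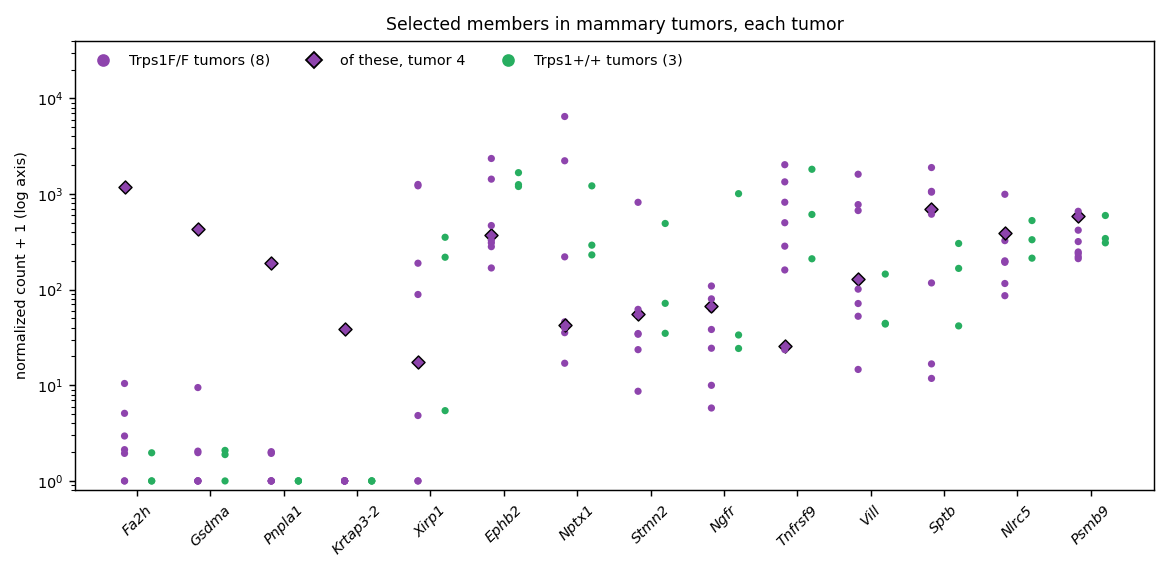
Normalized count plus 1, on a log axis, of 14 members in the 8 WAP-cre;Cdh1F/F;Trps1F/F tumors (purple, tumor 4 as a diamond) and the 3 WAP-cre;Cdh1F/F;Trps1+/+ tumors (green), with 1 point for each tumor. Fa2h, Gsdma and Pnpla1 each have a single high point, at 1189, 428 and 187, in tumor 4, and the groups overlap for the other members.

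No tested member was called between tumor genotypes. With values averaged for each mouse (6 against 3 mice), 24 members were tested with limma and 0 were called, as were 0 of all 15085 genes (0%); at an unadjusted p under 0.05 there were 791 genes and 1 member, Ephb2. Ephb2 ran from 167 to 2349 (median 348) in Trps1F/F tumors and was at 1669.7, 1196 and 1252 in Trps1+/+ tumors, a log2 fold change of -1.63 (SE 0.71, unadjusted p = 0.0467, adjusted p = 0.803). The groups overlapped, since tumors 6 and 8 with floxed Trps1 were at 1428 and 2349. Over the 24 members the median fold change was -0.35, against 0.00 over all genes. The subgroup number was not in the fit, and the average of tumors 4, 5 and 6 mixes subgroups 1 and 3. The 14 epithelial markers summed to 98614 to 181073 in subgroup 1 and to 2411 to 27022 in the other Trps1F/F tumors. The part of the subgroups in these results was not tested.

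Nptx1 ran from 16 to 6456 (median 43.1) in Trps1F/F tumors, with tumors 7 and 6 highest at 6456 and 2223, and was at 291, 229.8 and 1215 in Trps1+/+ tumors. Stmn2 was at 817 in tumor 1 and at 61.2 or less in the other 7 Trps1F/F tumors, and at 70.9, 33.9 and 491 in Trps1+/+ tumors. Ngfr ran from 4.79 to 108 (median 49.4) and was at 1007, 23.3 and 32.6. For each of these 3 genes the genotypes overlapped. Tnfrsf9 ran from 22.6 to 2022 (median 391.7) in Trps1F/F tumors and was at 209, 609.8 and 1812 in Trps1+/+ tumors, while Psmb9 varied less, from 209.9 to 658 (median 282) and at 308 to 595.

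Xirp1 was highest in tumors 5 and 8 with floxed Trps1, at 1257 and 1216, and had no read in tumors 1 and 7. The 12 skeletal muscle markers summed to 148042 in tumor 5 and to 107938 in tumor 8, and to 345 and 373 in tumors 1 and 7, with 12, 12, 6 and 5 of the 12 at 10 or more. Their part in the level of Xirp1 was not tested. Sptb ran from 10.8 to 1888 (median 657) and was at 40.8, 166 and 303 in Trps1+/+ tumors, and Vill ran from 13.6 to 1607 (median 113) and was at 144, 42.7 and 43.4. Flnc was high in most tumors, from 240.4 to 8071 (median 4178), and at 3899, 4423 and 4979.

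The skin and hair members stood together in tumor 4. Fa2h was at 1189 there and at 9.45 or less in the other 10 tumors, Gsdma at 428 and at 8.47 or less, and Pnpla1 at 187 and at 1.02 or less. Krtap3-2 was at 37.4 there with no read in any other tumor, and Dkkl1 was at 181 and at 34.8 or less. Of 211 genes on the list of keratin, cornified envelope and milk genes, 135 were at 10 or more in tumor 4, with a sum of 338305, against 31 to 55 genes in the other Trps1F/F tumors and 25 to 46 in Trps1+/+ tumors. Their part was not tested. Tumors 5 and 6, from the same mouse, were within the low range of these genes. Of the cilium members, Ccdc40 ran from 0.975 to 13.3 in Trps1F/F tumors and was at 3.55, 3.88 and 6.51 in Trps1+/+ tumors. Cfap206 reached 55.5 in tumor 3 and 36.4 in tumor 4 and was at 12.3 or less in the others, and Cep126 ran from 56 to 151 in Trps1F/F tumors and was at 16, 63 and 81.4 in Trps1+/+ tumors.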

How the data were processed

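RNA-seq of 33 samples was used in 4 tables of genes by libraries. RNA was extracted with an AllPrep kit and samples with an integrity number over 8 were made into libraries with a TruSeq kit, per the labels' protocols, which do not say whether strand was kept. Reads were aligned with TopHat to GRCm38 and counted with HTSeq, per the submitters' processing notes; for tool versions and annotation, the sources used here give nothing. The deposited tables are named as log2 normalized counts. Their values had the form log2(normalized count + 1) in every library, so dividing by a constant per library gave back the reads: 100% of values came out whole within 0.01 reads or a share of 1e-05. The authors' factors differ between tables, so levels were tested within a table only. Reads carry no molecular identifiers, so intervals (95%) and floors (3 reads over the group) cover counting error only. On the normalized scale 3 reads come to 2.26 to 3.36 in the TSA table, 1.55 to 2.76 with the guides, 2.03 to 4.51 among organoids and 2.66 to 3.37 among tumors.

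Symbols that had become dates were left out (14 of each file), as was, for guides and organoids, 1 row without a symbol, at most 5.16e-06% and 1.31e-05% of a library. Of the 12 organoid columns 8 share a header with another, so replicates are called a and b. The authors' own tables of fold changes were not used here. Tests used limma (version 3.58.1, R 4.3.3; eBayes with a variance trend) on the log2 values as deposited, after keeping genes whose normalized count plus 1 was at least 10 in as many libraries as the smallest group has; the threshold was a Benjamini-Hochberg adjusted p under 0.05 over all kept genes. Organoids were fitted in 1 model of 6 groups, and tumors of a mouse were averaged. A log2 fold change is the difference of 2 group means on the scale of log2(normalized count + 1) and is too small for genes with few reads. The fit was tested on simulated data. The members, the gene lists, the marker lists and the tests were chosen with earlier results of these data known. Genes were to be named by TSA mean (up to 20), by family (up to 4), by fold change among calls (up to 8 each way), by level in a table (up to 8), by nearness to a limit (3) and, outside the group, Trps1 and the deacetylases or corepressors that moved most; members outside that rule are named by role, after their values were seen. Coordinates, lengths and neighbours come from GENCODE M21 (99.4% of symbols in the TSA and tumor tables, 93.4% in the guide and 93.3% in the organoid table matched), and promoter sequences from RefSeq on GRCm38.p6. Alternatives tried were other limits for members, other filters, a pseudocount of 5, quantile normalization, a common median, fits of 2 groups, a replicate block, each tumor as a sample and leaving out each library in turn.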

Additional observations from a re-analysis of the deposited data

Results flagged for a closer look

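In 8 Trps1F/F tumors, 30 members with 10 or more normalized counts in a tumor were looked at for 1 tumor that stands apart. Dixon's ratio on log2 values had to be over 0.526, which chance passes in about 1 of 20 unfiltered groups, and 5 had one. In tumor 4 these were Fa2h at 1189, Gsdma at 428, Pnpla1 at 187 and Krtap3-2 at 37.4 normalized counts, and in tumor 1 it was Stmn2 at 817. Fa2h, Gsdma, Pnpla1 and Krtap3-2 reached 10 in tumor 4 alone, so the filter itself favored their flags. The number flagged therefore cannot be set against that chance rate.

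The difference of Cdh1+/F;Trps1F/F from Cdh1F/F;Trps1+/+ organoids changed between day 14 and day 28 for 9 of 26 tested members (limma, adjusted p under 0.05 for the difference between days, which 33.9% of all genes passed). On the log2 scale, day 28 minus day 14, it changed by 2.61 for Tnfrsf9, 2.39 for Ret, 2.16 for Xirp1, 1.83 for Flnc, 1.42 for Stmn2 and 0.73 for Nlrc5, and by -1.48 for Mast1, -0.60 for Vill and -0.52 for Sptb. The difference of Ret was called lower at day 14 (-1.67) and higher at day 28 (0.71); the signs of Mast1 (0.60 and -0.88) and Tnfrsf9 (-2.29 and 0.32) also turned, each with 1 of the 2 days called. The effect of floxed Trps1 within Cdh1F/F organoids changed for 4 of 26 (17.9% of all genes): by 1.65 for Slc2a6, -0.89 for Vill, -1.41 for Stmn2 and -0.56 for Fam13a.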

How the results depend on the processing

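The number of members depended on the limits: 14 genes with no read in every DMSO library, 113 with a DMSO limit of 5 (all 37 among them), 98 with a TSA limit of 25, 16 with a TSA limit of 100, and 39 to 50 when each library was left out in turn. Members silent in every tumor were 4, and 7 without tumor 4, an omission chosen after seeing the data. Of 126 called fold changes of single members, 86 passed the threshold in every alternative, 40 lost it in at least 1 and 23 of these in an alternative other than leaving out a library; none reversed. With a filter of 50 the guide comparison had 1 member tested and called, in place of 4. When each library was left out, calls ran from 2 to 5 members for the guides, 12 to 14 and 13 to 16 for Cdh1F/F;Trps1F/F against Cdh1F/F;Trps1+/+ at day 14 and 28, 10 to 13 and 11 to 15 for Cdh1+/F;Trps1F/F, 11 to 12 and 14 to 16 between the genotypes with floxed Trps1, and 6 to 8, 10 to 16 and 2 to 5 over time in Cdh1F/F;Trps1+/+, Cdh1F/F;Trps1F/F and Cdh1+/F;Trps1F/F. Calls stayed at 0 in the tumors and at 29 to 30 on the deacetylase list. The cause of these changes was not tested beyond what each alternative leaves out.

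The labels do not say what a replicate number shares. Between DMSO and TSA the numbers gave no sign of pairing, since deviations of same-numbered libraries correlated at -0.0838, -0.00282 and -0.0632. Between the guides the correlation was -0.193 for the same number and 0.193 for crossed numbers. With 2 libraries in a group these 2 values mirror each other, so they cannot decide whether the numbers pair the guide libraries. With the replicate number as a block, 4 of 4 members were called between the guides (8255 of all genes, against 8413 without) and 31 genes of the deacetylase list with TSA, against 30; with the numbers crossed, chosen after seeing the data, 4 members and 8814 genes were called. No paired analysis was possible for the organoids because 8 of their 12 columns share a header with another and replicate numbers are told apart in Cdh1F/F;Trps1F/F alone, nor for the tumors, whose numbers only name them. Depth limits the 14 members without a DMSO read to lower bounds of fold.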
